A study of Mus musculus with 4 samples.

Results

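CXC chemokines are small secreted proteins that steer leukocytes through receptors of the CXCR family. Here 8 of their genes were followed in macrophages given the top fat layer or the middle layer of a freeze-thawed fat preparation. They were taken by symbol from the deposited expression values, and all 8 were found among the 17013 genes listed: Cxcl9 and Cxcl10 (ligands of CXCR3), Cxcl1, Cxcl2 and Cxcl3 (ligands of CXCR2), and Cxcl14, Cxcl16 and Pf4. The cells were bone marrow-derived macrophages of wild-type (WT) C57BL/6 male mice, grown in M-CSF and kept for 24 h on porous inserts with artificial necrotic bone fluid (aNBF), an extract of freeze-thawed bone. Both groups received aNBF and a freeze-thawed preparation of abdominal fat, whose middle layer was the fat control medium (Con) and whose top layer was the high-fat-containing medium (Fat). The mice's age is not given in the sources used here, and nothing states whether the 2 libraries of a group came from separate animals or cultures, so p-values measure only the spread between these libraries.

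CXCR3 is carried by activated T cells and natural killer cells. Its ligands CXCL9 and CXCL10 are made by macrophages on exposure to interferons, which act through JAK kinases and factors such as IRF1. CXCR2 is the main chemokine receptor of neutrophils, and the genes of its ligands are classical targets of NF-kB in macrophages that sense damage or microbes. CXCL14 and the platelet factor PF4 are chemokines of a more homeostatic kind, and CXCL16 is a membrane-bound chemokine and scavenger of oxidized lipoproteins, recognized by CXCR6.

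The windows of 250 bases upstream of the start of transcription are shown for the 5 ligands of CXCR3 and CXCR2, because interferon and NF-kB act on such genes in part through sequences near the start. The sequences are those of RefSeq on GRCm38.p6, written 5′ to 3′ along the gene, and 7 of the 8 genes had an entry there (Cxcl16 had none). Capitals mark matches, on either strand, to the interferon-stimulated response element (ISRE, here 2 copies of GAAA with any 2 bases between them), the gamma-activated sequence (GAS, TTCNNNGAA) and the NF-kB consensus.
Cxcl9, chr5:92328080-92328329, minus strand: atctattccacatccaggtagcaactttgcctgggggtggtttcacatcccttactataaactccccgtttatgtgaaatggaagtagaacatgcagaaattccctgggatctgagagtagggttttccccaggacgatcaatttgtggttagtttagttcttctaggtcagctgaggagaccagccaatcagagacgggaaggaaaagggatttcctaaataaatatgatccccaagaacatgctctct
Cxcl10, chr5:92348890-92349139, minus strand: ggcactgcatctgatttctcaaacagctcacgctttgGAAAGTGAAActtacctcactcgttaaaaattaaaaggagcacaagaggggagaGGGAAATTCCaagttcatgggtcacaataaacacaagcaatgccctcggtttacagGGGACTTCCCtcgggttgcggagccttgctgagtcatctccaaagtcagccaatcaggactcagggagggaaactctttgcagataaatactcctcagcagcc
Cxcl1, chr5:90890995-90891244, plus strand: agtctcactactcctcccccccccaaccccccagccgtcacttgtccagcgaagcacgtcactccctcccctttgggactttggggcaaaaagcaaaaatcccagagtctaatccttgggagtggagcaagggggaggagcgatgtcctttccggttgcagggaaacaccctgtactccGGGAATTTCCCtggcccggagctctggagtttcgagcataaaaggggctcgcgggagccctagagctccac
Cxcl2, chr5:90903649-90903898, plus strand: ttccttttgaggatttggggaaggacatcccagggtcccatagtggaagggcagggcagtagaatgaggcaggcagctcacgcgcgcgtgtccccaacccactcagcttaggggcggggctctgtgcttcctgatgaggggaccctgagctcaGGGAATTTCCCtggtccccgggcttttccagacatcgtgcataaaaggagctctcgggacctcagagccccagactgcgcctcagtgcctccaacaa
Cxcl3, chr5:90785851-90786100, plus strand: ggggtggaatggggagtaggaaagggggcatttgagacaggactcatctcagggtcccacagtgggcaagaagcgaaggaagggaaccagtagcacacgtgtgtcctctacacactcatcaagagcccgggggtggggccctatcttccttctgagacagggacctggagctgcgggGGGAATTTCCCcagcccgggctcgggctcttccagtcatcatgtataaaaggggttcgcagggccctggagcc
In Cxcl10 the window held 1 ISRE match, 213 to 204 bases before the start, and 2 NF-kB matches, at 159 to 150 and 103 to 94 bases. Each of Cxcl1, Cxcl2 and Cxcl3 held the same run GGGAATTTCCC, which matched the NF-kB consensus on both strands at overlapping positions, beginning 71, 97 and 73 bases before the start. Cxcl9 held no match to these letters in this window. Of the windows not shown, that of Cxcl14 held 1 ISRE match, at 172 to 163 bases, and 1 GAS match, at 191 to 183 bases, and that of Pf4 held none. Among 32851 promoter windows of this length, 2.98% held the ISRE letters, 7.02% the GAS letters and 3.90% the NF-kB letters. A match is a description of the letters and not evidence of binding. By RefSeq's order on mouse chromosome 5, Pf4, Cxcl3, Cxcl1 and Cxcl2 lie in one cluster with Cxcl5, Ppbp and Cxcl15, and Cxcl9 and Cxcl10 lie next to each other, followed by Cxcl11, a transcribed pseudogene in this assembly. Cxcl14 and Cxcl16 lie on other chromosomes.

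The libraries held between 33573852 and 40785872 reads on genes, recovered from the deposited CPM (counts scaled to the library's total on genes), and a single read was worth between 0.0244 and 0.0295 CPM. All 8 chemokines passed the filter on low values (0.5 CPM in at least 2 of the 4 libraries), as did 12470 genes in all. The comparison of Fat with Con was made over all of these genes by limma's two-sided test of log2(CPM + 0.1), p-values were adjusted by the method of Benjamini and Hochberg, and fold changes below are on that log scale unless a mean is named. Pairs of values are given in the order of replicates 1 and 2. Of the 8 chemokines, 3 were called lower in Fat and 2 higher at an adjusted p-value under 0.05, beside 5.0% lower and 3.99% higher of all tested genes. The 8 were chosen with earlier results of these data known, so the gap to those shares is not read as a result. In 3 of the 8 both Fat libraries lay below both Con libraries and in 3 above, as in 26.2% and 29.4% of all tested genes. The median log2 fold change was 0.14 over the 8 and 0.01 over all tested genes. Macrophage identity was checked with 10 markers, Adgre1 under its older symbol Emr1. All 10 were detected, at a summed level of 36395 and 34388 CPM in the Con libraries and 28922 and 27403 CPM in the Fat libraries. Most of that sum was Lyz2, which was not called (limma adjusted p = 0.209), and the other 9 summed to 7675 and 7569 CPM in Con and 7406 and 7056 CPM in Fat. Mertk and Fcgr1 were called lower and 0 of the 10 higher, and 5 of the 10 had an unadjusted limma p under 0.05. The median log2 fold change of the 10 was -0.17. In 6 of them both Fat libraries lay below both Con libraries and in 0 above, beside 26.2% and 29.4% of all tested genes. Cd68 and Itgam had the highest log2 fold changes of the list, 0.09 and 0.07, and were not called. In bulk RNA, fewer cells making a transcript and less of it per cell cannot be told apart.

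The CXCR3 ligands fell together. Cxcl9 was at 23.0 CPM (780 reads) in Con replicate 1, 22.5 CPM (844 reads) in Con replicate 2, 5.06 CPM (189 reads) in Fat replicate 1 and 3.34 CPM (137 reads) in Fat replicate 2. Both Fat libraries lay far below both Con libraries, and the Con libraries were close to each other. The mean was 5.41-fold higher in Con, and the log2 fold change was -2.44 (standard error 0.18, 95% interval -2.85 to -2.02, limma adjusted p = 0.00159). Cxcl10 was at 12.3 CPM (416 reads) and 10.8 CPM (407 reads) in Con replicates 1 and 2 and at 2.09 CPM (78 reads) and 2.02 CPM (83 reads) in Fat replicates 1 and 2. The Fat libraries were almost equal, and the groups did not overlap. The mean was 5.62-fold higher in Con, with a log2 fold change of -2.43 (standard error 0.13, 95% interval -2.73 to -2.13, limma adjusted p = 0.000541). Ranked from the lowest log2 fold change of the 12470 tested genes, Cxcl9 stood at 4 and Cxcl10 at 5. Without the mean-variance trend in limma, where 0.0962% of all tested genes were called lower, Cxcl10 was still called (limma adjusted p = 0.0349) and Cxcl9 was not (limma adjusted p = 0.0697). A stretch of 133 exon bases of Cxcl10 overlaps the gene Art3 on the opposite strand, and Art3 was at 0 CPM in both Con libraries and at 0.0268 and 0.0244 CPM in the Fat libraries. Cxcl11, the third CXCR3 ligand gene, had 1 read in Con replicate 1 and 0 in the other libraries.

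The CXCR2 ligands did not follow them. Cxcl1 was at 2.62 CPM (89 reads) and 1.81 CPM (68 reads) in Con and at 2.63 CPM (98 reads) and 3.95 CPM (162 reads) in Fat. The lower Fat library only just exceeded the higher Con library. Its log2 fold change of 0.54 (95% interval -0.04 to 1.13, limma adjusted p = 0.242) was not called. Cxcl2, the most abundant of the 3, was at 15.5 CPM (527 reads) and 9.52 CPM (357 reads) in Con and at 13.2 CPM (491 reads) and 16.4 CPM (674 reads) in Fat. The groups overlapped, since Con replicate 1 lay above Fat replicate 1. The log2 fold change of Cxcl2 was 0.27 (95% interval -0.23 to 0.78, limma adjusted p = 0.498). It was 0.62 without Con replicate 1 (limma adjusted p = 0.044, with 2.66% of all tested genes called higher) and -0.08 without Con replicate 2 (limma adjusted p = 0.812, with 4.16% called higher), so that its direction and its call turned on which Con library was kept. Cxcl3 was at 4.75 CPM (161 reads) and 3.09 CPM (116 reads) in Con and at 3.88 CPM (145 reads) and 3.83 CPM (157 reads) in Fat. Both Fat libraries lay between the Con libraries, with a log2 fold change of 0.01 (95% interval -0.47 to 0.48, limma adjusted p = 0.987). These intervals leave room for a rise of 2.18-fold in Cxcl1, 1.71-fold in Cxcl2 and 1.40-fold in Cxcl3, but the lowest fold they allow for any of the 3 is 0.723. In every one of these genes Con replicate 1 was above Con replicate 2. Of the stretches of 75 bases in their GENCODE vM21 transcripts, 8.83% of those of Cxcl2 and 5.42% of those of Cxcl3 occur with at most 2 mismatches in another gene, for Cxcl2 in Cxcl3 and for Cxcl3 in Cxcl2 or Ankrd46, so the counts of these genes carry that uncertainty. No such stretch was found for Cxcl1, Cxcl9, Cxcl10, Cxcl14, Cxcl16 or Pf4.

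**Figure D1:**
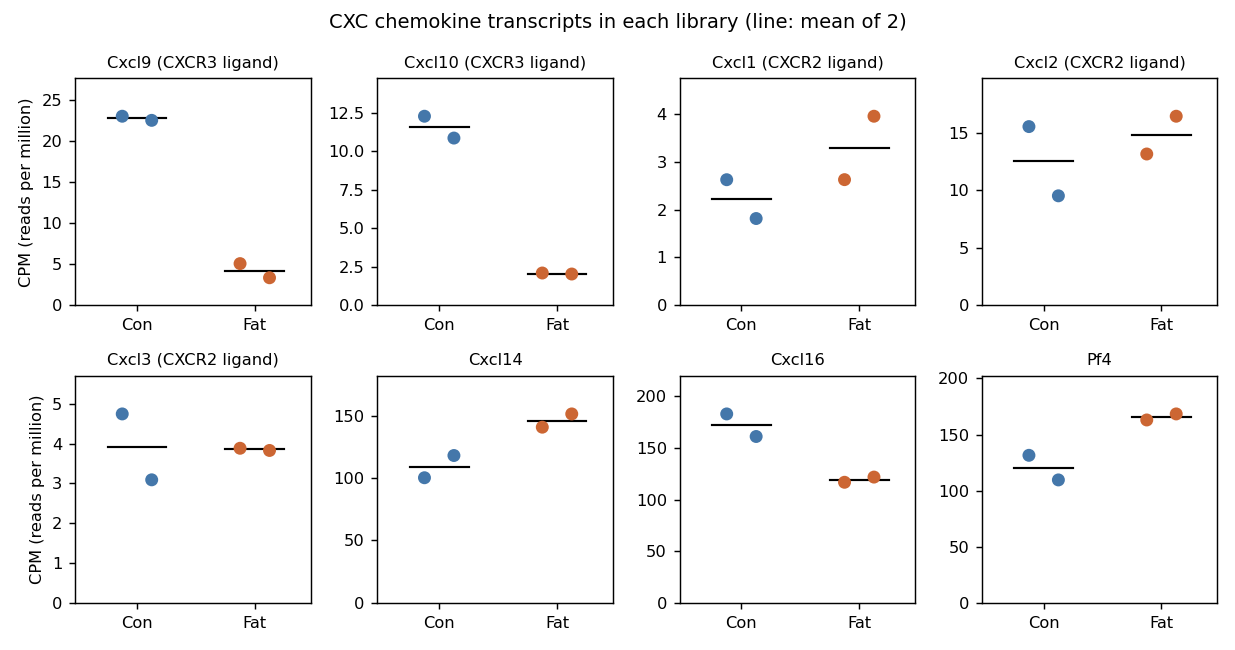
CPM of the 8 chemokine genes (vertical axes, each starting at 0) in the Con and Fat libraries; the left point of each pair is replicate 1, the right point replicate 2, and the line is their mean. Cxcl9, Cxcl10 and Cxcl16 lie lower in both Fat libraries and Cxcl14 and Pf4 higher, whereas Cxcl2 and Cxcl3 overlap between the groups and Cxcl1 separates them only narrowly.

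The contrast between the receptor classes was examined within each library, where scaling between libraries plays no part apart from the pseudocount. The log2 ratio of Cxcl10 to Cxcl2 was -0.34 and 0.19 in Con replicates 1 and 2 and -2.60 and -2.96 in Fat replicates 1 and 2, a difference of -2.70. For Cxcl9 against Cxcl1 the ratio was 3.08 and 3.56 in Con and 0.92 and -0.24 in Fat, a difference of -2.98. For all 6 pairs of a CXCR3 with a CXCR2 ligand, both Fat libraries lay below both Con libraries, and the differences ranged from -2.98 to -2.44 on the log2 scale. The exact two-sided permutation test gave p = 0.333 for each pair (0.333 after adjustment over the 6), which is the smallest value that 2 libraries against 2 can give. On the TPM scale, which also accounts for gene length, Cxcl9 and Cxcl10 together reached 41.7 and 37.8 TPM in Con replicates 1 and 2 and 8.07 and 6.62 TPM in Fat replicates 1 and 2. Cxcl1, Cxcl2 and Cxcl3 together reached 47.6 and 29.5 TPM in Con and 41.5 and 51.2 TPM in Fat. The CXCR3 ligands thus made up 51.4% ± 6.71 (SD, n = 2) of the summed level of both classes in Con and 13.9% ± 3.41 (SD, n = 2) in Fat. The balance between Cxcl9 and Cxcl10 themselves overlapped between the groups, with a TPM ratio of Cxcl9 to Cxcl10 of 0.71 and 0.785 in Con and 0.918 and 0.625 in Fat.

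**Figure D2:**
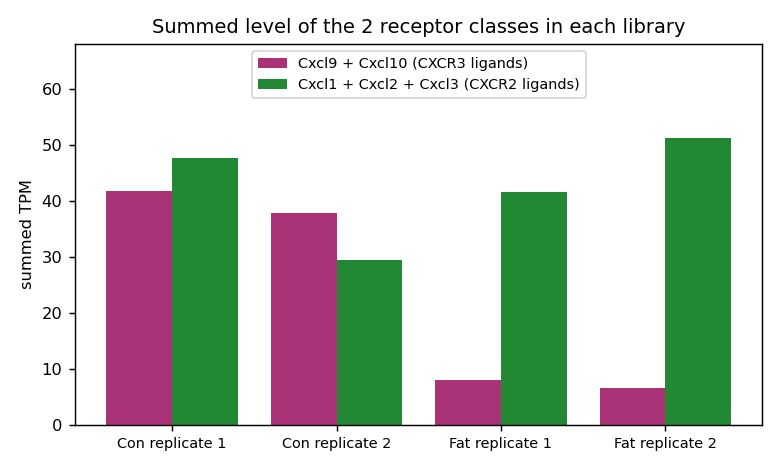
Summed TPM (vertical axis, from 0) of the CXCR3 ligands Cxcl9 and Cxcl10 and of the CXCR2 ligands Cxcl1, Cxcl2 and Cxcl3 in each of the 4 libraries. The CXCR3 bars drop from 41.7 and 37.8 TPM in Con to 8.07 and 6.62 TPM in Fat, and the CXCR2 bars lie between 29.5 and 51.2 TPM in all 4.

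The remaining 3 chemokines were the most abundant, and all of them were called. Pf4, which encodes a heparin-binding chemokine best known from platelet granules and also made by macrophages, measured 131.5 and 109.6 CPM in the Con libraries, against 163.0 and 168.4 CPM in the Fat libraries. It was higher in both Fat libraries, with a log2 fold change of 0.46 (standard error 0.09, 95% interval 0.26 to 0.66, limma adjusted p = 0.0195). Cxcl14, the gene of a chemokine with activity on monocytes and dendritic cells, measured 100.3 and 118.1 CPM in Con, against 140.8 and 151.4 CPM in Fat. The Fat libraries were again the higher ones. Its log2 fold change was 0.42 (standard error 0.08, 95% interval 0.23 to 0.62, limma adjusted p = 0.0242). Without Fat replicate 2 the log2 fold changes were 0.44 for Pf4 and 0.37 for Cxcl14, but neither was called (limma adjusted p = 0.054 and 0.0829), with 1.73% of all tested genes called higher. Without Fat replicate 1, with 3.50% called higher, both kept their calls. Cxcl16 measured 183.0 and 161.1 CPM in Con, against 116.8 and 121.8 CPM in Fat. It was lower in both Fat libraries, whose mean was 0.693 of the Con mean (log2 fold change -0.53 with a standard error of 0.07, 95% interval -0.69 to -0.36, limma adjusted p = 0.00741). A stretch of 552 exon bases of Cxcl16 overlaps Zmynd15 on the opposite strand, which was at 4.45 to 5.66 CPM in the 4 libraries. Without limma's mean-variance trend, Pf4, Cxcl14 and Cxcl16 were not called (limma adjusted p = 0.135, 0.146 and 0.0944), and 0.152% of all tested genes were called higher.

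The order of the levels, on the TPM scale, changed in part, with Pf4 the highest in both groups. In Con the mean levels were 444.6 TPM for Pf4, 152.4 for Cxcl16, 129.4 for Cxcl14, 25.1 for Cxcl2, 22.8 for Cxcl10, 17.0 for Cxcl9, 8.36 for Cxcl3 and 5.07 for Cxcl1. In that order only the neighbours Cxcl2 and Cxcl10 had overlapping libraries. In Fat they were 624.2 TPM for Pf4, 177.1 for Cxcl14, 108.0 for Cxcl16, 30.3 for Cxcl2, 8.39 for Cxcl3, 7.68 for Cxcl1, 4.14 for Cxcl10 and 3.21 for Cxcl9, and only Cxcl3 and Cxcl1 overlapped. Cxcl14 and Cxcl16 exchanged places, and the CXCR3 ligands, which stood above Cxcl3 and Cxcl1 in Con, were the lowest of the 8 in Fat. Averaged over the 4 libraries, Pf4 lay above 98.3% of the tested genes in TPM and Cxcl1 above 28.6%.

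Beyond these 8, 7 further ligand genes were considered. Cxcl15 and Cxcl17 were not listed, and Cxcl11 and Cxcl13 had at most 2 reads in any library. Ppbp, which lies beside Pf4 and encodes the precursor of a CXCR2 ligand of platelets, measured 3.48 and 2.03 CPM in Con, against 5.38 and 6.73 CPM in Fat. Both Fat libraries were above both Con libraries (log2 fold change 1.15 with a standard error of 0.25, limma adjusted p = 0.0308), although the call was lost without Fat replicate 2, with the TPM values and without the mean-variance trend. Cxcl5, another CXCR2 ligand, had 40 and 14 reads in Con and 43 and 41 in Fat, and was not called (log2 fold change 0.59, 95% interval -0.45 to 1.63, limma adjusted p = 0.473). Cxcl12, the stromal ligand of CXCR4, had a log2 fold change of -0.36 (limma adjusted p = 0.135). Among 8 receptor genes, 5 passed the filter and 0 were called by limma, edgeR or DESeq2, with 1 of the 5 (Cxcr3) at an unadjusted limma p under 0.05. Cxcr2 was at 3.39 and 3.25 CPM in Con and 3.99 and 4.12 CPM in Fat (log2 fold change 0.28, limma adjusted p = 0.253), and Cxcr3 was at 1.74 and 1.65 CPM in Con and 1.10 and 1.29 CPM in Fat (log2 fold change -0.47, limma adjusted p = 0.207). For Cxcr6, the receptor of CXCL16, the log2 fold change was 0.02 (limma adjusted p = 0.968).

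**Figure D3:**
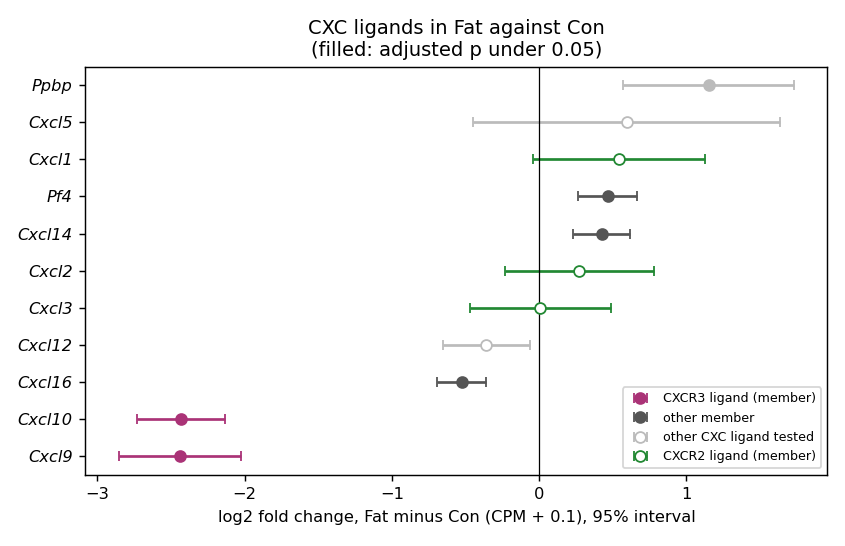
Log2 fold change of Fat minus Con (horizontal axis, log2 of CPM + 0.1) with its 95% limma interval for the 8 chemokines and the 3 other tested CXC ligands; filled points have an adjusted p-value under 0.05. Cxcl9 and Cxcl10 stand apart at -2.44 and -2.43, and the intervals of Cxcl1, Cxcl2, Cxcl3 and Cxcl5 include 0.

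Levels of other cell types were read beside these results, with 5.0% of all tested genes called lower and 3.99% higher. The share of all tested genes at an unadjusted p under 0.05 is not given here. Platelet and megakaryocyte markers, 10 genes that include Ppbp, summed to 33.3 and 30.4 CPM in Con and 40.3 and 44.3 CPM in Fat. Of the 10, 5 were too low to be tested, Gp9 having 2 to 4 reads in a library. Of the 5 tested, Ppbp and Itgb3 (an integrin also carried by macrophages) were called higher and 0 lower. In 3 of the 5 both Fat libraries lay above both Con libraries and in 0 below, beside 29.4% and 26.2% of all tested genes. The third was Itga2b, which was not called (log2 fold change 0.50, limma adjusted p = 0.23). Neutrophil markers summed to 538.6 and 466.2 CPM in Con and 450.6 and 444.6 CPM in Fat, with 0 of 10 called by limma and 4 of them, all lower in Fat, at an unadjusted p under 0.05. In 6 of the 10 both Fat libraries lay below both Con libraries and in 1 above. Fibroblast markers, of which 1 of 7 tested (Dcn) was called lower, summed to 644.7 and 670.1 CPM in Con and 537.7 and 686.5 CPM in Fat. Of the 7, 4 had an unadjusted limma p under 0.05, all lower in Fat. Both Fat libraries lay below both Con libraries in 5 of the 7 and above in 0. Of the 9 adipocyte markers, 3 were tested. Cidec (0 and 2 reads in Con, 67 and 47 in Fat) and Car3 (1 and 1 reads in Con, 269 and 139 in Fat) passed the filter only through the Fat libraries, and Fabp4, a gene that macrophages also express, had a log2 fold change of -0.16 and was not called (limma adjusted p = 0.174). Adipoq was at 0 reads in each Con library, against 28 and 14 reads in Fat. T cell and natural killer markers, which can accompany Ifng, summed to 20.6 and 16.6 CPM in Con and 13.6 and 12.2 CPM in Fat, with 0 of 6 tested called by limma and 3 at an unadjusted p under 0.05. The log2 fold changes of those 6 lay between -0.79 and -0.27, and in 4 of them both Fat libraries lay below both Con libraries and in 0 above. The part of these cells in the changes of Pf4, Cxcl14 and the CXCR3 ligands was not tested.

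Of 18 genes of interferon signalling, 16 passed the filter, and 6 were called lower and 0 higher in Fat, beside 5.0% and 3.99% of all tested genes. Irf1, a transcription factor that acts on the Cxcl9 and Cxcl10 promoters, measured 366.9 and 361.8 CPM in Con, against 224.3 and 180.0 CPM in Fat (log2 fold change -0.86 with a standard error of 0.10, limma adjusted p = 0.00447). Fat replicate 2 was the lower Fat library for Irf1, as it was for Cxcl9. Irf8, a factor of the macrophage lineage, had a log2 fold change of -0.48 (limma adjusted p = 0.00825), and the kinase gene Jak2 one of -0.29 (limma adjusted p = 0.0476). The feedback inhibitors of this pathway were lower as well, with log2 fold changes of -1.71 for Usp18, -1.02 for Socs1 and -0.60 for Socs3 (limma adjusted p = 0.0237, 0.017 and 0.0298). The receptor genes Ifngr1, Ifngr2, Ifnar1 and Ifnar2 were not called. Ifng itself fell under the filter, with 13 and 17 reads in Con and 4 and 4 in Fat. Ifnb1 had 1 read in each Con library and 0 in each Fat library, too few to be compared. The count of 6 was 4 without Fat replicate 2 and 3 without Con replicate 1, beside 2.51% and 2.68% of all tested genes called lower there, and 8 and 9 without Con replicate 2 and Fat replicate 1, beside 4.91% and 4.68%. It was 3 with the TPM values, where 791 of all tested genes were called in either direction. It was 0 with limma without the mean-variance trend, beside 0.0962% of all tested genes called lower.

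Of 15 genes of NF-kB subunits, kinases and inhibitors, all tested, 1 was called lower and 0 higher, a share close to the 5.0% and 3.99% of all tested genes. That gene was Nfkbie, which encodes the inhibitor IkB-epsilon (log2 fold change -0.41, limma adjusted p = 0.0338). Rela and Nfkbia, the genes of the main subunit and its inhibitor, had log2 fold changes of -0.03 and 0.05 (limma adjusted p = 0.825 and 0.67), and the list's median was -0.03, against -0.26 for interferon signalling and 0.01 for all tested genes. Of the 15, 5 had an unadjusted limma p under 0.05. Nfkbie, Nfkb1, Relb and Myd88 among them were lower in Fat, and Ikbkg was higher. In 6 of the 15 both Fat libraries lay below both Con libraries and in 2 above, beside 26.2% and 29.4% of all tested genes. Nfkbie was not called without Con replicate 1, Fat replicate 1 or Fat replicate 2 (in each case 0 of the 15 were called by limma), nor with the TPM values or without the mean-variance trend, whereas without Con replicate 2 the list had 2 genes called lower and 1 higher, beside 4.91% and 4.16% of all tested genes.

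**Figure D4:**
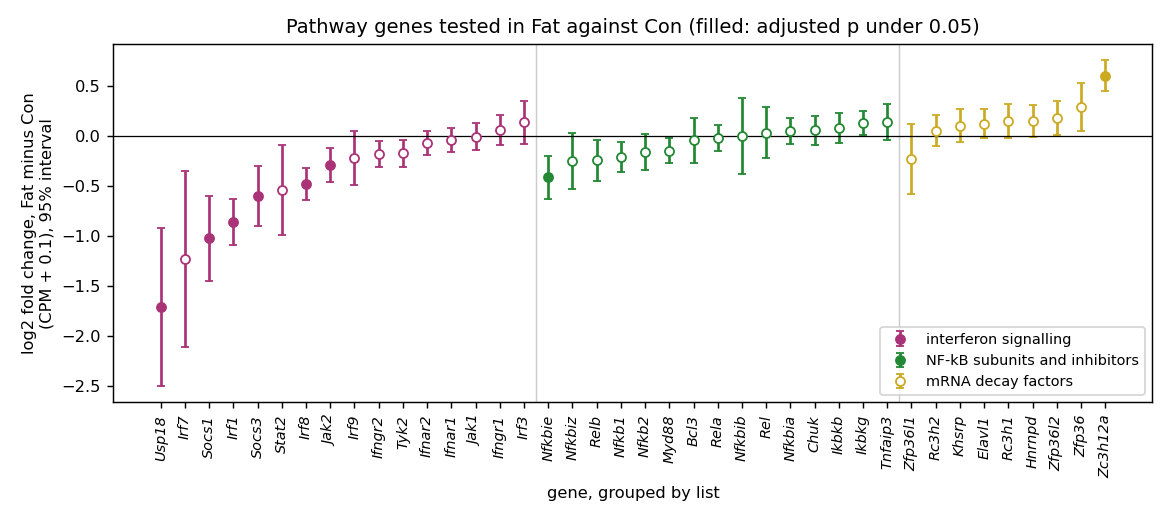
Log2 fold change of Fat minus Con (vertical axis, log2 of CPM + 0.1) with 95% limma intervals for the tested genes of interferon signalling, of NF-kB and of mRNA decay; filled points have an adjusted p-value under 0.05. In the interferon list 6 of 16 points are filled and all 6 are below 0, in the NF-kB list 1 of 15, and in the decay list 1 of 9, above 0.

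By the root mean square difference of centred log2(CPM + 0.1) over the 4 libraries, the 3 tested genes nearest to Cxcl9 were Gm4841 (0.0523), Gbp2 (0.151) and Irg1 (0.194). Gm4841 passed the filter only through the Con libraries, with 31 and 31 reads in Con and 5 and 2 in Fat, so that its distance depends on the pseudocount. Those nearest to Cxcl10 were Cxcl9 (0.198), Rasgrp1 (0.204) and Gm4841 (0.218). The genes nearest to Cxcl1 were Col7a1 (0.017), Tead3 (0.0202) and Gfra2 (0.0485), and those nearest to Cxcl2 were 9830147E19Rik (0.0112), Arc (0.0489) and Sspn (0.0551). None of the latter 6 was called (limma adjusted p between 0.199 and 0.755), whereas Gbp2, Irg1 and Rasgrp1 were called lower (limma adjusted p between 0.00286 and 0.00429). Both outcomes follow largely from the choice of genes by likeness, since Cxcl1 and Cxcl2 were not called and Cxcl9 and Cxcl10 were. With 4 libraries, such likeness says no more than that the values run alike.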

How the data were processed

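Poly(A) RNA from 4 libraries (2 Con, 2 Fat) was prepared by the authors with a stranded kit and sequenced as single reads. The submitters' processing notes name GRCm39. The aligner, the counter, the annotation and whether strand was used in counting are not given in the sources used here. The authors deposited CPM (counts scaled to each library's total on genes, further divided by a library factor between 0.99 and 1.01) and TPM (deposited values also scaled for length). Whole reads were recovered from the CPM steps for 100% of values (tolerance 1e-06). The intervals cover the fit only, and counting errors treat PCR copies as separate molecules.

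Samples were grouped by title. Genes that reached 0.5 CPM in 2 or more libraries were fitted with limma 3.58.1 (R 4.3.3, mean-variance trend) on log2(CPM + 0.1), and adjusted p-values without another name are limma's. The study's methods name edgeR. Since the deposited unit is CPM, edgeR 4.0.16 and DESeq2 1.42.0 were run on the recovered reads as alternatives. On simulated counts for the 12470 tested genes, 200 of them changed, limma found 98.5% with 13 false calls. Every simulated gene had the same relative spread beyond counting, and the planted changes all exceeded those of Pf4, Cxcl14 and Cxcl16. The simulation therefore checks only that the fit runs, and does not measure power or false calls in these data. Further alternatives were a pseudocount of 1, no filter, a filter on the mean (5 CPM), TPM, median-ratio scaling, the replicate number as a block, no trend and each library left out.

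The chemokines and gene lists were chosen with earlier results of these data known. The genes named are the 8 chemokines, the called genes of the lists, Cxcl5, Cxcl11, Ppbp, Cxcr2, Cxcr3 and Cxcr6, and the 3 nearest genes. Other list genes were named after their values were seen. A gene of the interferon list is not reported here and was left out of that list's counts and median. Promoters came from RefSeq (GRCm38.p6) by symbol, and no expression value was tied to their coordinates.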

Additional observations from a re-analysis of the deposited data

How the results depend on the processing

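Cxcl10 was called lower under all 14 alternatives, with a log2 fold change between -2.52 and -2.04. The 3 chemokines called lower (Cxcl9, Cxcl10 and Cxcl16) became 1 without the mean-variance trend, and the 2 called higher became 0 there and 0 without Fat replicate 2. With each library left out in turn, the number called lower was 3 each time and the number called higher lay between 0 and 3. Cxcl3, with a log2 fold change of 0.01, changed sign with median-ratio scaling (-7.01e-05), without Con replicate 2 (-0.29), without Fat replicate 1 (-0.00148), and with edgeR's quasi-likelihood test (-0.0215), its exact test (-0.0238) and DESeq2 (-0.0292), and Cxcl2 changed sign without Con replicate 2 (-0.0789). With each library left out, Cxcl3 lay between -0.29 and 0.31 and Cxcl2 between -0.08 and 0.62, the latter called without Con replicate 1. The cause was not tested.

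Over all tested genes the number called was 1122. It was 31 without the mean-variance trend, and with each library left out it lay between 529 and 1131, the lower values being 529 without Fat replicate 2 and 666 without Con replicate 1. The replicates of the 2 media share only numbers. The deviations of same-numbered libraries from their group means correlated at 0.20 over the tested genes. Over the 9760 of them with a mean of at least 5 CPM the correlation was 0.34. A fit blocked on that number called 2520 genes, and of the 8 chemokines again 3 lower and 2 higher. In that fit 11 of the 16 interferon signalling genes were called lower (6 without the block), 3 of the 15 NF-kB genes lower (1 without it) and 3 of the 9 mRNA decay genes higher (1 without it), as well as 1 lower each among the other CXC ligands and the sheddases (0 without it). Calls over all tested genes rose from 1122 to 2520 there, and their split by direction is not given here. The list counts of that fit are therefore not read as results about the lists. For the ratios of the 6 pairs, the mean difference within numbers equals the difference of the group means by construction (-2.98 to -2.44). In those ratios all 6 differences were negative with a pseudocount of 1 CPM, with TPM and without each library, the last between -3.56 and -2.16. At this depth a gene under 3 reads cannot be compared, which applies to Cxcl11, Cxcl13, Ifnb1 and the receptor gene Ackr1.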

Other observations

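Of 9 genes whose proteins control the decay of chemokine and cytokine transcripts, 1 was called higher in Fat and 0 lower, beside 3.99% and 5.0% of all tested genes. That gene was Zc3h12a, which encodes the endoribonuclease regnase-1. It measured 27.4 and 25.6 CPM in the Con libraries, against 40.4 and 39.8 CPM in the Fat libraries, and the replicates of each medium were close to each other. The log2 fold change of 0.60 had a standard error of 0.07 (limma adjusted p = 0.0044). Zfp36, the gene of tristetraprolin, was at 103.6 and 121.2 CPM in Con and 125.4 and 149.1 CPM in Fat and was not called (log2 fold change 0.29, limma adjusted p = 0.132). The median of the 9 was 0.14 on the log2 scale. With each library left out in turn, that median lay between 0.12 and 0.18. Without limma's mean-variance trend 0 of the 9 were called higher, beside 0.152% of all tested genes.

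The sheddase genes Adam10 and Adam17, whose products release CXCL16 from the cell surface, were not called by limma (log2 fold changes 0.04 and -0.19, adjusted p = 0.715 and 0.0965), Adam17 having an unadjusted p under 0.05. Markers of B cells (0 of 4 tested called by limma) and of endothelial cells (0 of 2), none of them at an unadjusted p under 0.05, summed to between 18.2 and 23.8 CPM and between 5.04 and 7.93 CPM in the 4 libraries.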
